A study of Mus musculus with 6 samples.

Results

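The genes described here act on Notch receptors inside the cell and in the nucleus. They are 4 subunits of gamma-secretase (Psen2, Psenen, Ncstn and Aph1a), the 3 fringe glycosyltransferases (Lfng, Mfng and Rfng) and 2 nuclear cofactors (Rbpj and Maml1). They were chosen by name, and every array probe whose RefSeq accession belongs to 1 of these symbols was taken. That gave 14 probes for 9 genes, out of 55681 probes on the array. All 14 probes were well above background on all 6 arrays, so all 9 genes were among the 25494 features tested.

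RNA of tibial cartilage from C57BL/6 mice was hybridised to Agilent 1-colour expression arrays. There were 3 control mice, and 3 ADAM10 flox/flox-Col2a1-Cre mice, called mutants here, which carry floxed ADAM10 on both alleles together with Cre. Cre under the Col2a1 promoter is active in chondrocytes and their precursors, so cells that do not descend from these are expected to keep intact alleles. The labels call the controls only control and do not say whether they carry floxed alleles or Cre. No age is given, and the replicates are separate mice.

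In the Notch pathway, a ligand on a neighbouring cell exposes the receptor to ADAM10, which removes its outer part. Gamma-secretase, a complex built around a presenilin, then cuts the remaining stub within the membrane and frees the intracellular domain. That domain enters the nucleus, binds the DNA-binding protein RBPJ and recruits Mastermind-like proteins such as MAML1 to switch on target genes. Fringes act earlier, in the Golgi, where they add N-acetylglucosamine to fucose on the receptor and change which ligands it answers to. In cartilage, Notch signalling is known to influence chondrocyte proliferation and hypertrophy.

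RBPJ recognises a core of TGGGAA, with GTGGGAA a longer form. Of the 9 genes, 8 have an entry in the promoter table used (RefSeq, build GRCm38.p6), and Mfng has none. Within the 250 bases upstream of an annotated start, on either strand, TGGGAA occurs in 4 of these 8 genes: Lfng, Psen2, Psenen and Rbpj. The same search found it in 24.1% of all 27025 genes in the table. GTGGGAA occurs in 2 of the 8, Lfng and Psen2, and in 6.18% of all genes. Every GTGGGAA also counts as a TGGGAA. The stretches are shown because they place the pathway's own DNA motif beside the genes measured here; capitals mark TGGGAA or its reverse complement TTCCCA.

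Lfng: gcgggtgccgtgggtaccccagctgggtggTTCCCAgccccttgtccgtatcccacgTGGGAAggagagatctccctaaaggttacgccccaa
Rbpj, farther match: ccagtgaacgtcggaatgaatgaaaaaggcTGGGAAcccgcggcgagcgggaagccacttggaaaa
Rbpj, nearer match: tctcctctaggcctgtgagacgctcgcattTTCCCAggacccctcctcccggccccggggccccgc
Psenen: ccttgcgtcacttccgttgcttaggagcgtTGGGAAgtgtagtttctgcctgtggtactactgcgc
Psen2: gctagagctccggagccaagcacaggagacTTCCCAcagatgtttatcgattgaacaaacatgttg

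Each is written 5′ to 3′ on the strand of its gene. The Lfng stretch (chr5:140607176-140607268, plus strand) holds matches that begin 135 and 108 bases upstream of the start, and the nearer is the longer form. The Rbpj stretches (chr5:53590167-53590232 and chr5:53590251-53590316, plus strand) hold matches that begin 149 and 65 bases upstream of the first listed start. The Psenen stretch (chr7:30563261-30563326, minus strand) and the Psen2 stretch (chr1:180246004-180246069, minus strand) hold matches that begin 92 and 89 bases upstream. Psenen and Psen2 each have a pair of annotated starts in the table, and these matches lie before the second listed. A match of letters is a description and not a measured binding site.

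Expression values below are log2 signals relative to the 75th percentile of the same array, so that 0 is the level of that percentile. Differences are mutant minus control, with the standard error (SE) and 95% interval of the limma fit. Levels of different probes cannot be compared with each other. The 75th percentile of the processed signal lay between 510.3 and 631.0 intensity units, with 62.4% to 65.4% of spots well above background and 0 saturated. All arrays lay on 1 slide, with the controls and mutant 1 on its first row and mutants 2 and 3 on its second. Along the first principal component, which held 44.6% of the variance, mutant 2 stood at 71.0 and control 1 at -55.3, while the other arrays lay between -14.0 and 15.2. Control 1 and mutant 3 had more Xist than Ddx3y signal, a Y-linked gene, and the other 4 arrays had less. The split was less sharp on mutants 1 and 3. Xist read -3.66 on mutant 1, against -7.23 on controls 2 and 3 and -7.32 on mutant 2. Ddx3y read -4.57 on mutant 3, against -7.34 on control 1. Adam10 itself gave 1.61, 1.58 and 1.21 on the control arrays, against 0.15, -1.70 and 0.31 on those of the mutants. The floxed exon is not named in the labels, and whether the Adam10 probe lies within it is not known here.

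None of the 9 genes passed the test between genotypes. With limma at a Benjamini-Hochberg adjusted p below 0.05, 0 of 9 were called, and the percentage called among all features was 0. Before adjustment, 0 of 9 had a p below 0.05, against 3.44% of all features (1.89% lower and 1.55% higher in mutants). Of the 9 differences, 6 were below 0 and 3 above, with a median of -0.03, beside a median of 0.04 over all features. Among all features, 40.0% of the differences were below 0. Their median size without sign was 0.07, against 0.13 over all features. The fringes Mfng and Lfng had the 2 differences farthest from 0, at -0.89 and -0.57, and the other 7 genes lay between -0.18 and 0.09.

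**Figure D1:**
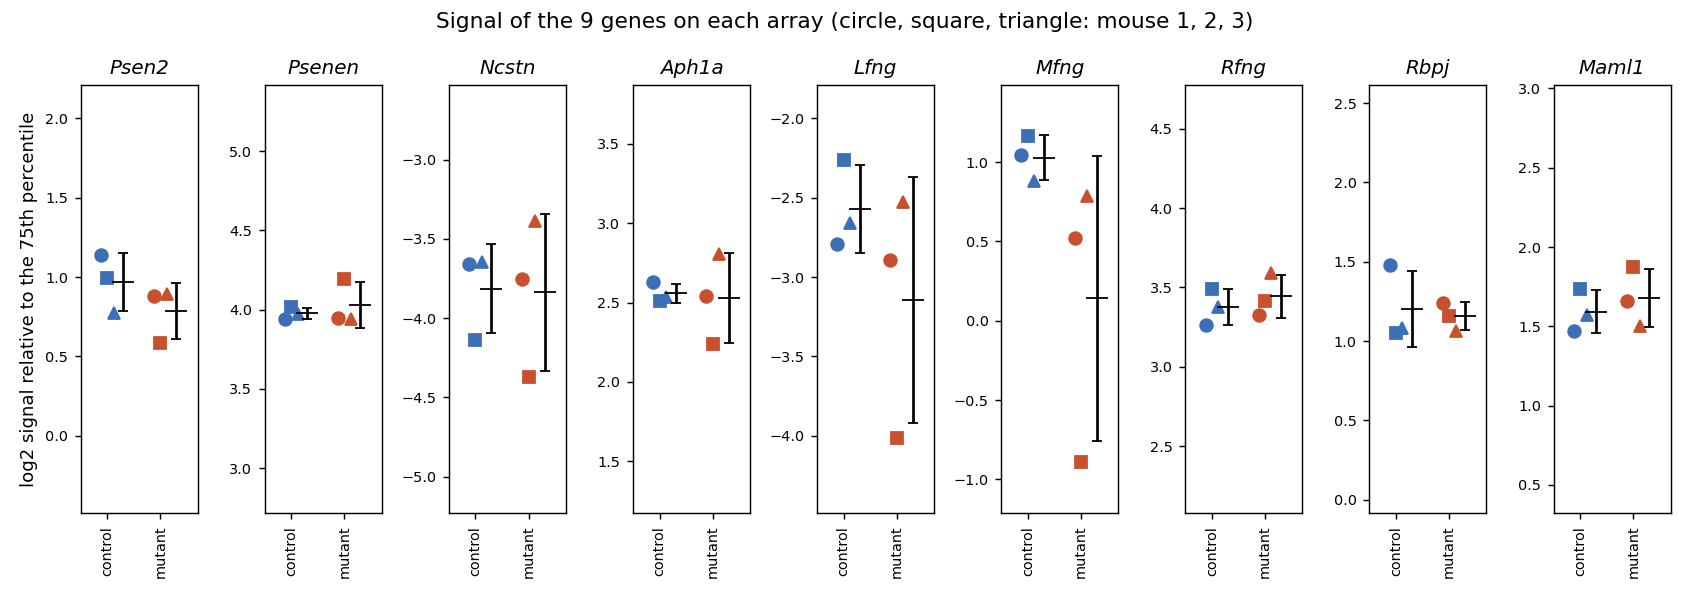
The log2 signal relative to the 75th percentile (vertical axis, 2.7 log2 units in every panel) of each gene's brightest probe is plotted for 3 control (blue) and 3 mutant (red) arrays. Bars are the mean ± SD of 3 arrays beside the points. Mutant 2 (square) lies far below the other arrays for Lfng, at -4.02, and Mfng, at -0.89, while Psenen, Rfng, Rbpj and Maml1 each range over less than 0.5 log2 units.

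Among the gamma-secretase subunits, Psen2 encodes presenilin 2, a catalytic subunit. Controls 1, 2 and 3 gave 1.14, 0.99 and 0.78, and mutants 1, 2 and 3 gave 0.88, 0.58 and 0.89. The groups overlapped, since control 3 lay below mutants 1 and 3. The means were 0.97 ± 0.18 (SD, n = 3) and 0.79 ± 0.18 (SD, n = 3), and the difference was -0.18 (SE 0.15, 95% interval -0.55 to 0.19). The limma adjusted p over all features was 0.987, and the interval spans 0.68 to 1.14 times the control level. Without control 3 the difference was -0.28, and without mutant 2 it was -0.08.

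Psenen encodes PEN-2, the small subunit needed for presenilin to mature. Its brighter probe read 3.94, 4.01 and 3.98 in controls and 3.95, 4.19 and 3.94 in mutants, with mutant 2 the highest of the 6 arrays. Mutants minus controls came to 0.05 (SE 0.12, 95% interval -0.24 to 0.35, limma adjusted p 0.987), less than the SE. The second probe read 3.85, 3.88 and 3.87 in controls and 3.85, 4.05 and 3.82 in mutants. Both probes of Psenen traced the same pattern, and after centring they differed by 0.02 log2 units on average over the 6 arrays (root mean square). The interval of the brighter probe spans 0.84 to 1.27 times the control level, the tightest of the 9 genes in log2 width.

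Ncstn encodes nicastrin, the large glycoprotein of the complex, and was measured by 1 dim probe. Its processed signal was 46.9, 31.6 and 40.8 intensity units in controls and 46.8, 28.9 and 48.7 in mutants. In log2 terms it read -3.66, -4.14 and -3.65 in controls and -3.75, -4.37 and -3.39 in mutants. The lowest array in each group was mouse 2 and the groups overlapped throughout. The difference of -0.02 (SE 0.28, 95% interval -0.69 to 0.65, limma adjusted p 0.995) leaves a range of 0.62 to 1.57 times the control level. The sign was not stable: without mutant 2 the difference was 0.24, and without mutant 3 it was -0.25.

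Aph1a encodes a multi-pass membrane protein that scaffolds the complex, and its 2 probes carry accessions of different transcript records. The brighter probe (NM_146104) read 2.63, 2.51 and 2.54 in controls and 2.54, 2.24 and 2.81 in mutants. The second probe (NM_146134) read -1.94, -1.66 and -1.55 in controls and -1.69, -1.42 and -1.92 in mutants. On the brighter probe mutant 2 was the lowest array and mutant 3 the highest, whereas on the second probe mutant 2 was the highest and mutant 3 lay near the lowest. The differences were -0.03 (SE 0.17, limma adjusted p 0.991) and 0.04 (SE 0.18, limma adjusted p 0.995), opposite in sign and each smaller than its SE. Centred profiles of the pair differed by 0.34 log2 units (root mean square).

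Lunatic fringe, Lfng, is itself a known target of Notch in the segmenting embryo and was dim here, at 36.9 to 116.1 intensity units. It read -2.79, -2.26 and -2.66 in controls and -2.89, -4.02 and -2.53 in mutants. Mutant 2 stood more than 1 log2 unit below every other array, while mutant 3 lay within the range of the controls. The means were -2.57 ± 0.28 (SD, n = 3) and -3.15 ± 0.78 (SD, n = 3), and the difference of -0.57 (SE 0.39, 95% interval -1.51 to 0.36) did not pass the test (limma adjusted p 0.987). Leaving out mutant 2 gave -0.14 and leaving out mutant 3 gave -0.88. Arrays of the slide's first row alone gave -0.32, and the 4 arrays with more Ddx3y than Xist signal gave -0.99. With normexp background correction it was -0.33 after percentile scaling and -0.30 after quantile scaling.

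Manic fringe, Mfng, had 2 probes, and on both of them every mutant array lay below every control array. The brighter probe read 1.04, 1.16 and 0.88 in controls and 0.52, -0.89 and 0.79 in mutants. The second probe read 0.66, 0.91 and 0.59 in controls and 0.39, -0.10 and 0.53 in mutants. The lowest control and the highest mutant were close on both probes, 0.88 against 0.79 and 0.59 against 0.53. Of all features tested, 8.95% had groups that did not overlap (3.75% lower and 5.19% higher in mutants), so 1 of 9 genes is near the background share. Of all probes, 8.79% did so.

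The brighter Mfng probe averaged 1.03 ± 0.14 (SD, n = 3) over controls, and over mutants it averaged 0.14 ± 0.90 (SD, n = 3). The difference was -0.89 (SE 0.43, 95% interval -1.92 to 0.14), or 1.85-fold lower, with an unadjusted limma p of 0.0800 and an adjusted p of 0.987. The second probe gave -0.45 (SE 0.20, 95% interval -0.93 to 0.03), or 1.36-fold lower, with an unadjusted limma p of 0.0626 and an adjusted p of 0.995. A two-sided exact permutation test gave p = 0.1 for either probe, the smallest value 3 arrays against 3 allow. Both probes put mutant 2 lowest, but by different amounts: relative to the control mean of the brighter probe it stood at -1.92, and mutants 1 and 3 at -0.51 and -0.24. Without mutant 2 the difference was -0.37 on the brighter probe and -0.26 on the second. Arrays of the slide's first row alone gave -0.51 on the brighter probe. The unadjusted limma p of Mfng was below 0.05 in 2 alternatives. It was 0.0289 with array weights, where 15.6% of all features passed that threshold and 0.0157% passed after adjustment, and 0.0314 without mutant 3, where 4.51% did.

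Radical fringe, Rfng, had 2 probes far apart in brightness. The brighter probe read 3.26, 3.49 and 3.38 in controls and 3.33, 3.41 and 3.59 in mutants. The second probe, at 49.6 to 79.3 intensity units, read -3.30, -3.49 and -3.13 in controls and -2.99, -3.22 and -3.31 in mutants. The groups overlapped on both probes, and mutant 2, the low array for Lfng and Mfng, lay in the middle of the range. The differences were 0.07 (SE 0.13, 95% interval -0.24 to 0.38, limma adjusted p 0.987) and 0.13 (SE 0.15, limma adjusted p 0.995). The interval of the brighter probe spans 0.84 to 1.30 times the control level.

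**Figure D2:**
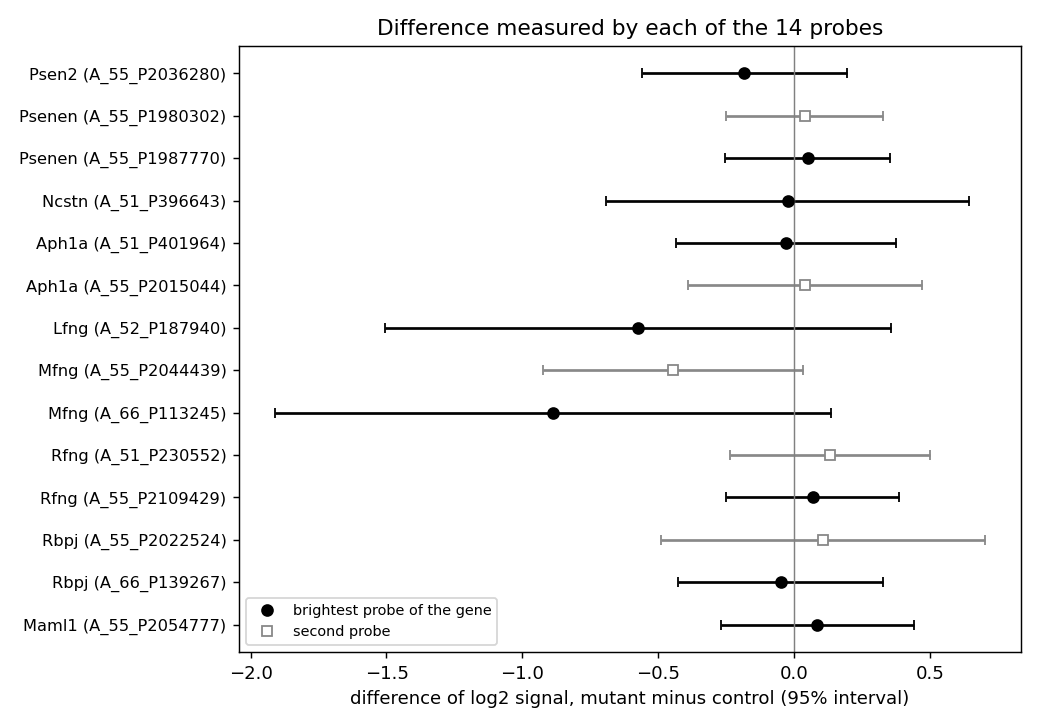
The difference of log2 signal, mutant minus control, is plotted for each of the 14 probes with its 95% interval from the limma fit over all probes. Filled circles are the brightest probe of each gene and open squares the second probe. Every interval includes 0, and the 2 Mfng probes and the Lfng probe lie farthest to the left, at -0.89, -0.45 and -0.57.

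Of the nuclear cofactors, Rbpj encodes the DNA-binding protein that holds targets silent until the Notch intracellular domain arrives. Its brighter probe read 1.48, 1.05 and 1.08 in controls and 1.24, 1.16 and 1.06 in mutants. Control 1 was the highest array, and all 3 mutants lay between control 1 and control 2. The second Rbpj probe read -1.29, -1.52 and -1.53 in controls and -1.49, -1.72 and -0.81 in mutants, where mutant 3 was highest. The differences were -0.05 (SE 0.15, 95% interval -0.42 to 0.32, limma adjusted p 0.989) and 0.11 (SE 0.25, limma adjusted p 0.995). They were opposite in sign, and without control 1 the brighter probe turned to 0.09.

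Maml1 encodes a coactivator that clasps the Notch intracellular domain and RBPJ and recruits acetyltransferases. It read 1.47, 1.74 and 1.57 in controls and 1.66, 1.87 and 1.50 in mutants, a range of 0.40 log2 units over the 6 arrays. The groups overlapped, with mutant 2 the highest array and control 1 the lowest. The difference was 0.09 (SE 0.15, 95% interval -0.26 to 0.44, limma adjusted p 0.987), and the interval spans 0.83 to 1.35 times the control level.

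Mutant 2 gave the lowest of the 6 readings for 5 of the 9 genes (Psen2, Ncstn, Aph1a, Lfng and Mfng) and the highest for 2 (Psenen and Maml1). Relative to the control mean, the fringes averaged -1.11 log2 units on mutant 2, -0.29 on mutant 1 and 0.01 on mutant 3. The gamma-secretase subunits averaged -0.26, -0.02 and 0.14 on mutants 2, 1 and 3, and the nuclear cofactors 0.12, 0.05 and -0.11. Leaving out 1 array changed the sign of the difference for 6 genes (Psenen, Ncstn, Aph1a, Rfng, Rbpj and Maml1), and kept it for Psen2, Lfng and Mfng.

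**Figure D3:**
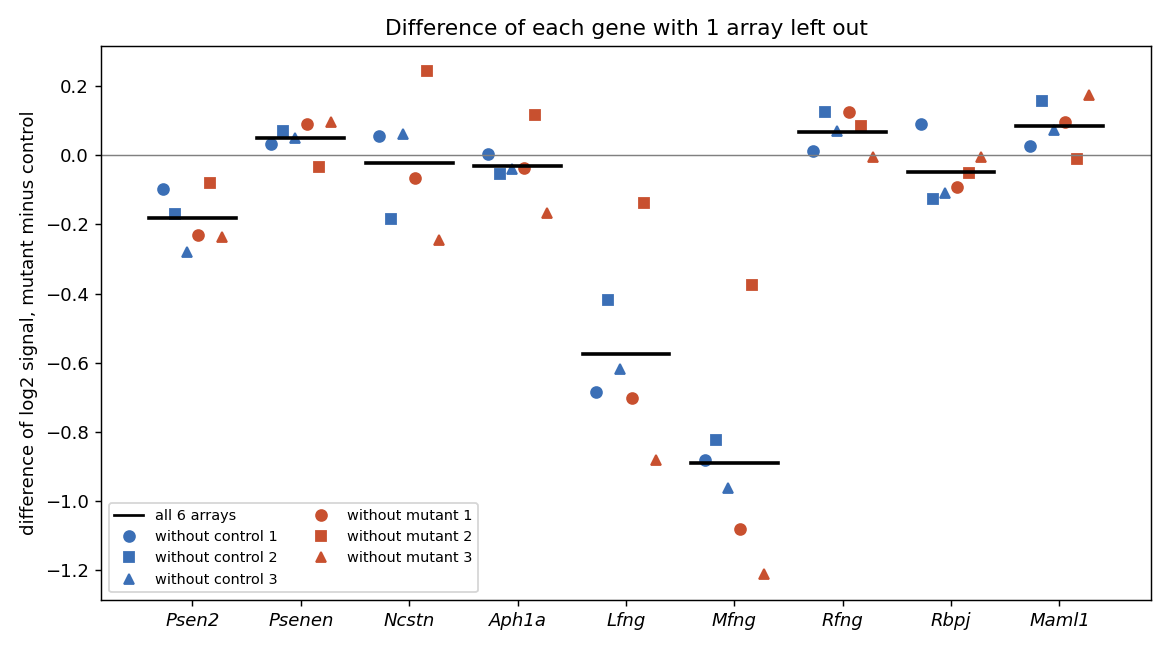
The difference of log2 signal, mutant minus control, of each gene's brightest probe is plotted with all 6 arrays (black line) and with 1 array left out (blue for a control, red for a mutant). Without mutant 2 (red square) Lfng moves from -0.57 to -0.14 and Mfng from -0.89 to -0.37, and both stay below 0 on leaving out any single array.

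Markers of several other cell types were, like Mfng and Lfng, lowest on mutant 2. The tissue is labelled cartilage, and all 15 chondrocyte markers were well above background on all 6 arrays. Their summed level was 3526 to 4188 times the 75th percentile signal in controls and 3961 to 5135 in mutants. All 12 endothelial markers were well above background on every array too, with a summed level of 53.7 to 69.1 in controls and 28.1 to 64.6 in mutants. For the 10 macrophage markers tested, of 12 listed, the sums were 31.8 to 40.5 and 8.74 to 29.0, and for 10 osteoclast markers 244.2 to 333.5 and 35.9 to 167.4. Each sum adds linear signals of different probes, so the brightest genes weigh most and sums of different lists cannot be compared. By mean signal in either group the brightest were Col2a1 (chondrocyte), Egfl7 (endothelial), Csf1r (macrophage) and Acp5 (osteoclast). The lists differed by a median of -0.70 (endothelial, 11 of 12 below 0), -1.05 (macrophage, 10 of 10) and -1.22 (osteoclast, 10 of 10), against 0.29 for chondrocytes (1 of 15 below 0). Among all features, 40.0% were below 0. Mutant 2 had the lowest score of the 6 arrays in 7 of 11 marker lists and the highest in the chondrocyte list. In these bulk samples, fewer cells of a type and less RNA per cell cannot be told apart. The part of these markers' cells in the readings of Lfng and Mfng was not tested.

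**Figure D4:**
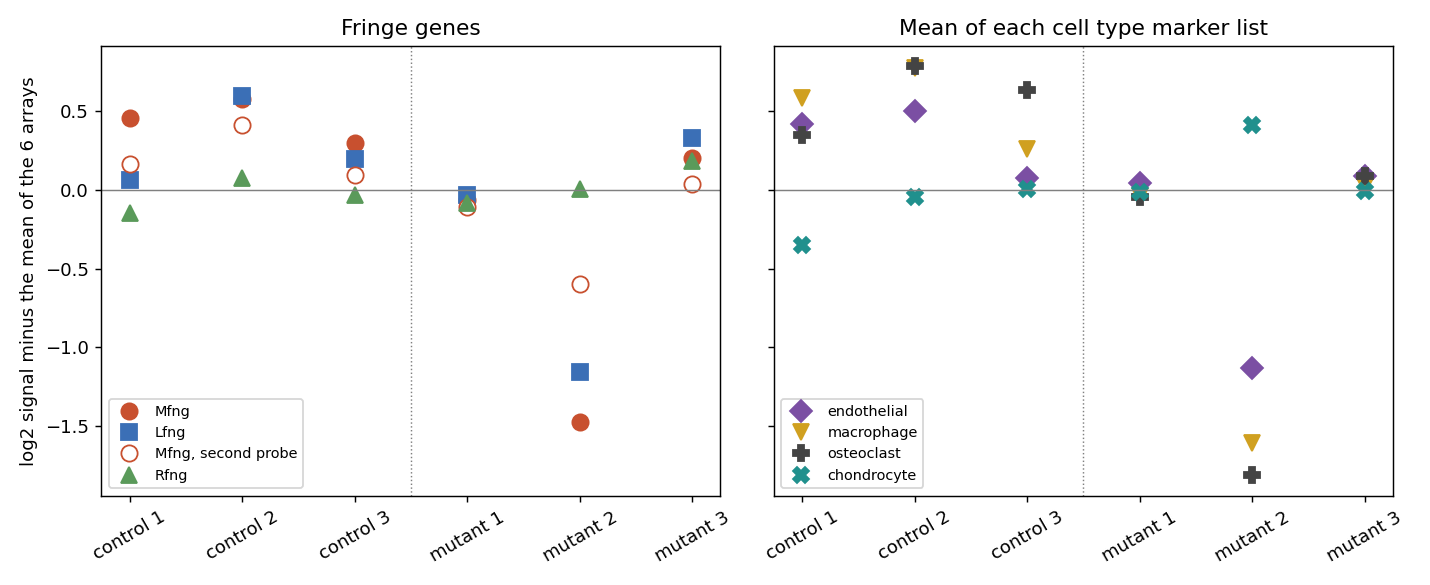
The left panel shows the log2 signal minus the mean of the 6 arrays for the fringe probes, and the right panel the mean of the same quantity over the markers of 4 cell types. On mutant 2 the endothelial, macrophage and osteoclast scores are -1.13, -1.61 and -1.81, on the array where Mfng and Lfng are also lowest, while the chondrocyte score is 0.41 and Rfng stays near 0.

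Profiles most like those of the 3 genes with the widest range over the arrays were looked up among 159 pathway and marker genes. No other features were searched, so the nearest had to be among these. Likeness was the root mean square difference of centred log2 signals over 6 arrays. Mfng and Lfng departed most from the control mean on mutant 2, where 7 of 11 marker lists were also lowest. Mfng, which ranged over 2.05 log2 units, was closest to Csf1r, the receptor for macrophage colony-stimulating factor (0.07), and Itgb3, the integrin beta 3 chain of osteoclasts and platelets (0.07). Csf1r read 4.48, 4.80 and 4.52 in controls and 4.08, 2.62 and 4.37 in mutants, the same order of mutants as Mfng. Lfng and Itgb3 had this order of mutants too. The controls were ordered otherwise: control 3 was the lowest control for Mfng and control 1 for Csf1r. These likenesses are those of the brighter Mfng probe. The second was not looked up, and after centring the 2 Mfng probes differed by 0.40 log2 units (root mean square). Lfng, which ranged over 1.76, was closest to the endothelial sialomucin Emcn (0.16) and the receptor Notch4 (0.18). For Ncstn, with a range of 0.98, the nearest were less alike: Kdr (0.26), an endothelial receptor, and Col1a2 (0.27), a chain of type I collagen. On control 2, the lowest control for Ncstn, Kdr read 3.74, against 3.63 and 3.74 on controls 1 and 3.

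Of 54 other genes of the Notch pathway listed, 51 were tested, and Hey2 was too dim. In this list limma called 0 genes at an adjusted p below 0.05. At an unadjusted p below 0.05, 4 were lower and 0 higher, or 7.84% against 3.44% of all features, and the median difference was -0.04. Without control 2 that count was 2, with 1.98% of all features passing. Adam10 was 1 of the 4, at -1.88 (SE 0.53), and the other 3 were among the 5 target genes tested. The 51 genes, here and in later counts, include Adam10, the gene floxed in the mutants. Its place among those passing is therefore not independent of the design. The 5 targets were all below 0 with a median of -0.63. The smallest p-values were those of Hes5 at -0.61 (SE 0.14) and Hey1 at -1.30 (SE 0.41), both repressors induced by Notch. Hes5 was dim, at -2.85, -2.85 and -3.09 in controls and -3.50, -3.39 and -3.72 in mutants. Of 8 receptors and ligands, 7 were below 0, beside 40.0% of all features, and their median was -0.40. Those with the smallest p were the endothelial receptor Notch4 at -0.48 (SE 0.31) and the ligand Jag1 at -0.50 (SE 0.39). Mutant 2 carried most of these values: without it the median of the 8 was -0.03, Notch4 stood at -0.11 and Jag1 at -0.11. Without control 1 the median of the 8 was -0.25 and Jag1 stood at -0.26. Without mutant 2 the 5 targets were still all below 0, with a median of -0.58, but Nrarp stood at only -0.01 and Hes1 at -0.23. On the same arrays Hes5 stood at -0.68, Hey1 at -0.86 and Adam10 at -1.24. The difference between these sub-lists and the 9 genes was not tested.

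The sub-lists of genes that act beside the 9 had medians between -0.05 and 0.09, beside 0.04 over all features. Since 40.0% of all features were below 0, more of them lay above 0 than below. The other gamma-secretase subunit tested, Aph1b, and the modulators Rer1, Tmed10 and Gsap had a median of 0.08, with Rer1, a sorting receptor that holds unassembled subunits back, at 0.14 (SE 0.15) and Gsap at -0.15 (SE 0.17). Of the other enzymes that build sugars on Notch, 4 of 7 were below 0 with a median of -0.05. Poglut1, which adds O-glucose to the receptor, was at 0.38 (SE 0.18, unadjusted limma p 0.0732) and B4galt1, which extends the sugar that fringes make, at -0.10 (SE 0.12). Of 14 other nuclear factors, 10 were above 0 (median 0.09), including Maml2, a relative of Maml1, at 0.35 (SE 0.18) and the demethylase Kdm5a, a corepressor partner of RBPJ, at 0.18 (SE 0.12). Of 10 regulators of endocytosis and ubiquitin, 6 were above 0 (median 0.07). Their 2 smallest p-values belonged to Dtx4, a Deltex ubiquitin ligase, at -0.78 (SE 0.42) and Dtx3 at 0.17 (SE 0.14). Without mutant 2 these were -0.27 and 0.09, Rer1 was at 0.0047 and B4galt1 at -0.04, and the medians of these 4 sub-lists lay between -0.03 and 0.03. Adam17, the related sheddase, was at -0.24 (SE 0.14). The limma adjusted p of each of these named genes was 0.987.

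**Figure D5:**
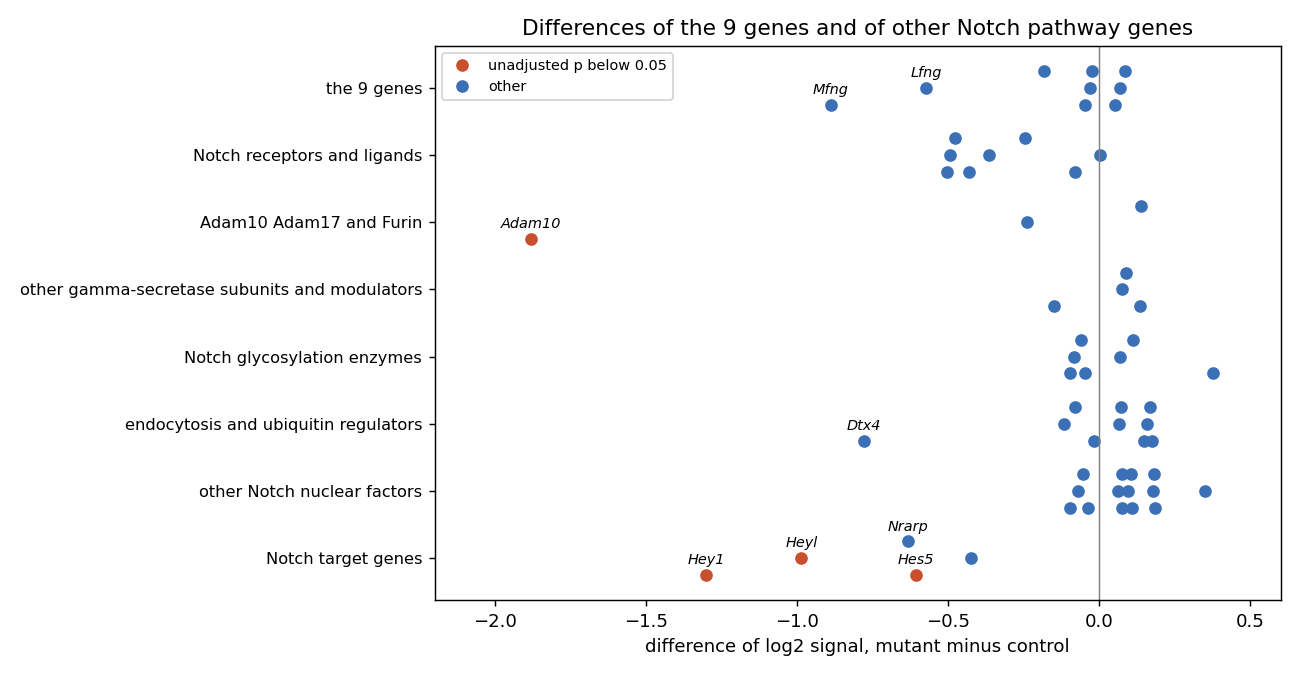
The difference of log2 signal, mutant minus control, is plotted for the 9 genes (top row) and for 51 other tested genes of the Notch pathway by sub-list. Red points had an unadjusted p below 0.05 (Adam10, Hes5, Hey1 and Heyl), and the vertical spread within a row only separates the points. Apart from Mfng and Lfng, the 9 genes lie within -0.18 and 0.09, while all 5 target genes lie below 0.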

How the data were processed

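Transcript signal was measured in tibial cartilage of 6 mice on 1 array each. Per the file headers and the submitters' processing notes, the authors used Agilent Feature Extraction 10.7.1.1. The deposited values are an intensity from which Feature Extraction subtracted background, and raw intensity medians of spot and local background. The authors' deposited value table is a ratio to the 75th percentile of each array, as read from its values, with column medians of 0.095 to 0.105. How that table was made is not stated in the sources used. Accessions without version were matched to RefSeq genes of GRCm38.p6. Because the headers name mm9, no probe coordinates are given.

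Outlier and control spots were left out. The processed signal was taken as log2 minus the 75th percentile of 59305 non-control spots. Probes well above background on at least 3 of 6 arrays were kept (35236, of which 8 were dropped for outlier spots). The brightest probe stood for each of 25494 features in the gene fit; second probes come from a fit over 35228 probes. The test was limma 3.58.1 under R 4.3.3 (4 residual and 2.42 prior degrees of freedom). It was two-sided, and Benjamini-Hochberg adjusted p-values over all features were read at 0.05. The fit was tested on simulated data, drawn independently for each gene with the same spread in both groups. Those data held no array that stands apart as mutant 2 does here, so they cannot show how the fit handles it. The number of arrays limits precision.

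The genes and lists were chosen with earlier results of these data known. Named were all 9 genes with every probe, Adam10 and up to 2 genes of smallest p per pathway sub-list. The 2 listed genes nearest in profile to each of the 3 most variable of the 9 were also named. Aph1b, Tmed10, Heyl, Nrarp and Hes1 fall outside that rule and were named with their values in view. Alternatives comprised normexp correction (offset 50), quantile scaling, the deposited table, other filters, the mean of probes, array weights, the replicate number as a block and subsets of arrays.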

Additional observations from a re-analysis of the deposited data

How the results depend on the processing

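Over 18 alternatives, 247 values of the 9 genes and their second probes were recomputed: 206 kept their direction and their side of the threshold and 41 changed direction, 13 of them on leaving out 1 array. The smallest adjusted p of any of the 9 was 0.28, for Mfng with array weights. Mfng on both probes, Lfng, and the second Rfng probe kept their sign in every alternative run.

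The cause of each change below was not tested. Quantile scaling gave -0.00036 for the second Psenen probe. The mean of a gene's probes gave 0.0059 for Aph1a and 0.029 for Rbpj. Array weights gave -0.040 for Psenen, 0.28 for Ncstn, 0.046 for Aph1a, -0.072 for Rfng, 0.12 for Rbpj and -0.038 for Maml1, and -0.056 and -0.016 for the second probes of Aph1a and Psenen. With these weights limma called 4 features, and at an unadjusted p below 0.05 there were 1 of the 9 genes (Mfng) and 10 of 51 other pathway genes (19.6%), beside 15.6% of all features. Without both control 1 and mutant 2 the values were 0.0042 for Psen2, -0.051 for Psenen, 0.32 for Ncstn, 0.15 for Aph1a, 0.087 for Rbpj and -0.070 for Maml1, and -0.20 and -0.039 for the second probes of Aph1a and Psenen. The slide's first row, with mutant 1 alone assumed to vary like the controls, gave -0.028 for Psenen, 0.063 for Ncstn, -0.048 for Rfng and 0.037 for Rbpj, and -0.013 and -0.043 for the second probes of Psenen and Rbpj. The 4 arrays with Y-linked signal above Xist gave -0.062 for Rfng, 0.13 for Rbpj and -0.080 for its second probe.

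Leaving out 1 array moved Psenen between -0.033 and 0.095, Ncstn between -0.25 and 0.24, Aph1a between -0.17 and 0.12, Rfng between -0.0053 and 0.13, Rbpj between -0.13 and 0.089 and Maml1 between -0.010 and 0.17. The second probes ranged from -0.087 to 0.16 (Aph1a), -0.031 to 0.082 (Psenen) and -0.16 to 0.30 (Rbpj). At an unadjusted p below 0.05 these subsets gave 0 to 1 of the 9 genes and 2 to 6 of 51 other pathway genes, beside 1.98% to 4.51% of all features. The values of other pathway genes with 1 array left out were added after seeing the data.

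Samples with the same replicate number did not deviate together (correlations of 0.21, 0.06 and -0.16 for numbers 1, 2 and 3), so the numbers were not taken as a pairing. With the replicate number as a block limma called 0 of the 9 genes, Mfng stayed at -0.89 (adjusted p 0.985), and 3 of 51 other pathway genes (5.88%) had an unadjusted p below 0.05, beside 2.89% of all features. Ncstn, Lfng and the second Rfng probe were the dimmest of the 14 probes, closest to background.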

Other observations

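Of the marker lists not described above, skeletal muscle, adipocyte, osteoblast and T lymphocyte markers were also lowest on mutant 2, with scores of -2.48, -1.87, -0.91 and -0.27. Their median differences were -0.35, -0.44, -0.17 and -0.04. Neutrophil, erythroid and B lymphocyte scores were instead highest on control 1, at 1.72, 1.56 and 1.39, and their median differences were -1.61, -1.03 and -1.53. Control 2 also scored above every mutant in these lists, but control 3 did not. Control 3 scored -0.54 (neutrophil) and -0.88 (B lymphocyte), within the range of the mutants, and -0.998 (erythroid), below every mutant. These scores were therefore not lower in mutants than in all controls. Skeletal muscle scores spanned the widest range, up to 2.25 on control 1. Of the 9 genes, 7 had a range over the arrays of under 1 log2 unit.

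The 11 promoter entries of the 8 genes with an entry had between 44.8% and 75.6% G and C in the 250 bases upstream of the start, against a median of 52.4% over all entries. Rfng had the highest share and the second listed Psen2 start the lowest.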
